A study of Mus musculus with 2 samples.

Results

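C1q-high macrophages were the cells in healed mouse skin that carried high counts of the 3 genes for complement C1q and few counts of genes from neighbouring cell types. A cell was a member when C1qa, C1qb and C1qc together gave at least 10 unique molecular identifiers (UMIs, each standing for 1 captured RNA molecule). It also had to hold Mmp12 below 5, Cd209a below 2, Cd207 below 2, the 3 CD3 chain genes below 2 in sum, and Col1a1 with Col1a2 below 20 in sum. These limits kept apart Mmp12-high macrophages, dendritic cells, Langerhans cells, T cells and fibroblasts or their doublets. The rule took 1326 of 24649 cells that passed the cell filter, 740 of 11443 in the WT_LW library and 586 of 13206 in the TLR9agonist_LW library.

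The study asked how a TLR9 agonist alters the healing of a large skin wound. Both libraries came from dorsal skin of wild-type (WT) mice, described in the study's methods as young adult male C57BL/6J animals, after a circular wound of 1.8 cm had closed. The WT_LW wound was sprayed with PBS and the TLR9agonist_LW wound with ODN2395, a synthetic CpG oligonucleotide, each on days 0, 3 and 6, and the tissue was taken 2 days after the scab detached. Cells were captured with the 10x Chromium 3' chemistry. The labels name a spray with PBS as the control, whereas other places of the study describe drops or injections and a figure legend names a control oligonucleotide. Each group was 1 library of pooled mice, and the number of mice pooled is stated differently in different places of the study. There was therefore no replicate, no test was made, and every interval below is an exact 95% interval for counting error only.

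Macrophages are phagocytes that clear dying cells, bacteria and matrix debris from a wound and send signals that recruit or calm other leukocytes. C1q is the recognition unit of the classical complement pathway, is made largely by macrophages in the tissues, and marks dying cells for engulfment. Some skin macrophages arise from blood monocytes that enter after injury and others are long-lived residents, and the balance between them shifts as a wound closes. TLR9 is an endosomal receptor for CpG DNA whose engagement can lead to NF-kB signalling and to type I interferon.

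Members were deeply sequenced cells in both libraries. The median member held 9318 UMIs and 2626.5 genes in WT_LW and 7725 UMIs and 2184 genes in TLR9agonist_LW, against medians of 5520 and 6310.5 UMIs over all filtered cells. The median mitochondrial share was 2.55% and 1.79% of a member's UMIs. In all, members gave 7321573 and 4847718 UMIs, so that 3 UMIs, the floor set here for a gene without a UMI, equal 0.41 CPM (UMIs of a gene scaled to a common library total) in WT_LW and 0.619 CPM in TLR9agonist_LW. Of the deposited barcodes, 47 occurred in both libraries, and 3 WT_LW and 4 TLR9agonist_LW members were among them. None of those was a member in both.

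The C1q sum separated members from the other cells with few intermediate cells. It had a median of 68.5 UMIs and a maximum of 315 in WT_LW, and a median of 64 and a maximum of 342 in TLR9agonist_LW. Just inside the threshold, with 10 to 12 C1q UMIs, lay 37 WT_LW and 33 TLR9agonist_LW cells with median depths of 4047 and 2687 UMIs. Ms4a7 or Pf4, which the rule did not use, was detected in 86.5% and 75.8% of them. Just outside, with 7 to 9 UMIs, lay 55 and 43 cells with median depths of 2479 and 1330 UMIs, and 74.5% and 76.7% of them held Ms4a7 or Pf4. The cells on either side of the threshold thus differed in depth more than in these markers.

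**Figure D1:**
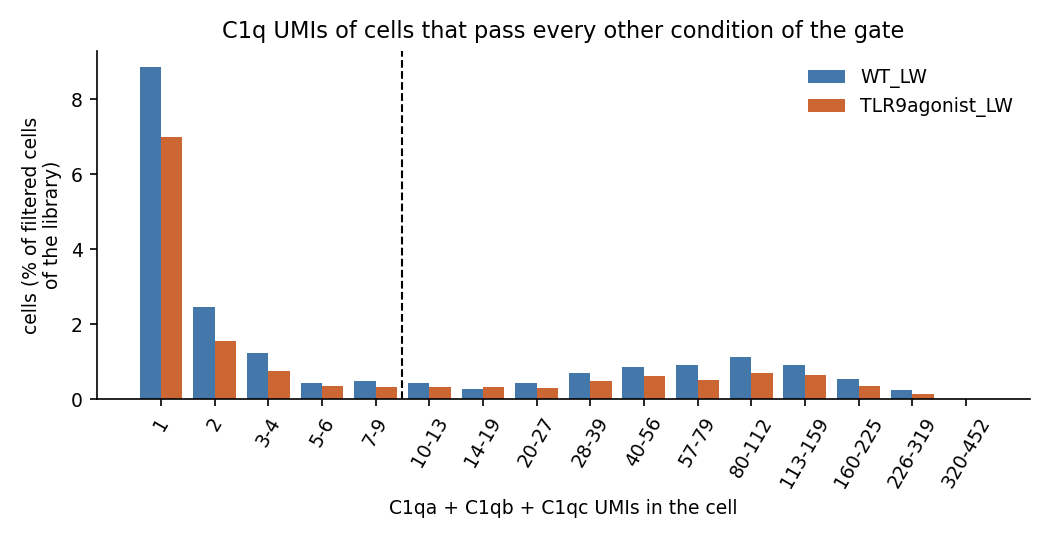
Bars give the cells with each range of C1qa, C1qb and C1qc UMIs in sum, as a percentage of the filtered cells of their library, among cells that met every other condition; cells without a C1q UMI are not drawn. The dashed line marks the threshold of 10 UMIs, and each library has a low region around it between the many cells with 1 to 4 UMIs and a broad hump of members whose medians were 68.5 and 64 UMIs.

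The exclusions did not act equally in the 2 libraries. Of 1014 WT_LW and 819 TLR9agonist_LW cells with at least 10 C1q UMIs, 274 and 233 failed another condition. The collagen limit removed 66 and 115, the CD3 limit 96 and 74, the Mmp12 limit 103 and 72, the Cd207 limit 34 and 36, and the Cd209a limit 20 and 3, a cell being counted at each limit it failed. The median member held 5 collagen UMIs in WT_LW and 9 in TLR9agonist_LW, and T cells, which do not make type I collagen, held 5 and 8. The collagen limit therefore cuts into a level that was present in unrelated cells and was higher in TLR9agonist_LW.

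Macrophage markers that the rule did not use were high in the members. Ms4a7, a tetraspanning protein of tissue macrophages, was at 1020 CPM in WT_LW against 1362 CPM in TLR9agonist_LW members, 28.4 and 64.0 times its level in all other filtered cells of the same library. Pf4, a platelet and macrophage chemokine, was at 2131 and 2142 CPM, 23.0 and 59.1 times the other cells. After every cell was thinned to 1500 UMIs, Ms4a7 was detected in 63.1% of 726 WT_LW members and 73.3% of 554 TLR9agonist_LW members, against 2.75% and 1.65% of T cells. Pf4 was detected in 58.0% and 74.4% of members and in 4.56% and 2.77% of T cells. Before thinning the shares of members were 83.0% and 90.1% for Ms4a7 and 76.1% and 86.7% for Pf4. The thinning left out 14 and 32 members that were shallower.

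The genes that stood out most over the other cells, apart from C1q itself, formed a macrophage set. In WT_LW and TLR9agonist_LW, the fold over other cells was 33.3 and 47.1 for Ccl12, a monocyte-attracting chemokine, and 29.8 and 67.8 for Fcrls, an Fc receptor-like molecule. It was 26.7 and 75.5 for the folate receptor gene Folr2, 21.1 and 41.0 for the Fc receptor gene Fcgr4, and 21.1 and 53.1 for Ms4a14. Adgre1, which encodes F4/80, stood 19.1 and 42.2 times above the other cells. The coagulation factor gene F13a1 did so 19.1 and 21.3 times, and Spic, a transcription factor of haem-handling macrophages, 21.1 and 18.7 times. Because the members were picked by expression, these folds describe the rule's outcome and carry no test.

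**Figure D2:**
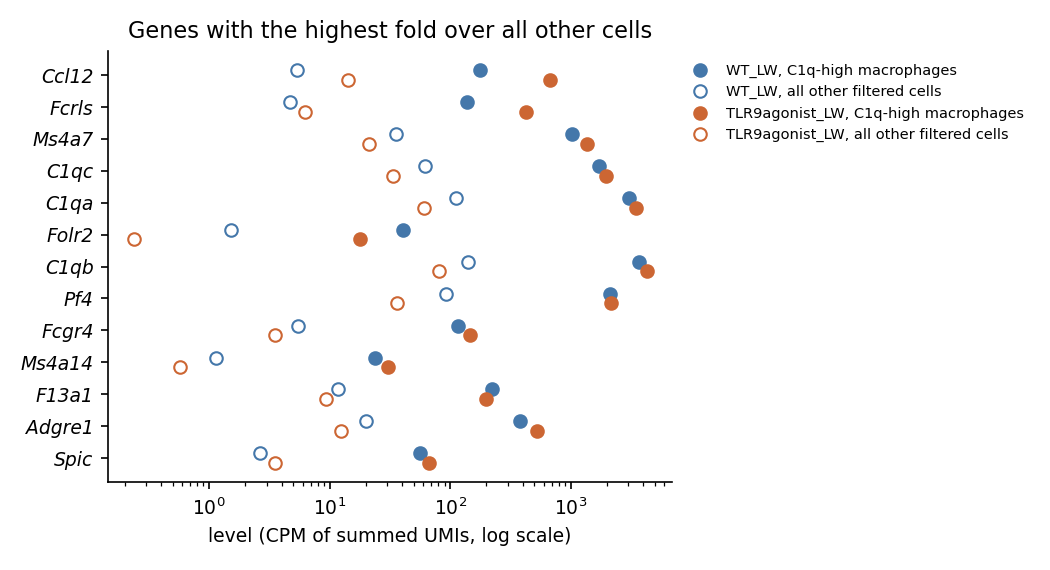
Levels in CPM of summed UMIs, on a log axis, of the genes with the highest fold over all other filtered cells, filled circles for C1q-high macrophages and open circles for the other cells, blue for WT_LW and orange for TLR9agonist_LW. Every filled circle lies at least 18.7 times above the open circle of its library, and Ccl12 and Fcrls are the genes whose filled circles lie farthest apart between libraries.

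Promoters of these leading genes are shown because many of them share a run of letters that PU.1, the master transcription factor of macrophages, is known to bind. Of 11 leading genes, C1q included, that matched the RefSeq promoter table (GRCm38.p6, 250 bases before each start site), 9 held AGGAAGT on either strand, against 7.69% of all 32851 promoters. A listed gene counted when any of its promoters matched, whereas the share over all was taken per promoter, with 32851 promoters for 27025 gene symbols. The 2 shares are therefore not in the same unit. Those 9 were Ccl12, Fcrls, C1qc, Folr2, C1qb, Pf4, Fcgr4, F13a1 and Spic. The same letters were in only 3 of 11 matched promoters of the macrophage identity list. They were in 2 of 15 of the chemokine list, 2 of 22 of the type I interferon list and 2 of 18 of the interferon gamma list. The overlapping spelling GAGGAAGT was in 3 of 11 and 2.44% of all, and GGAAGTG in 6 of 11 and 8.55% of all, and the first spelling was chosen for display after these counts were seen. The submitters' processing notes name mm9, so the coordinates below belong to the promoter table and not to the counts. Capitals mark AGGAAGT or its reverse complement, and each sequence is written toward the gene. The C1qc window is chr4:136892915-136893164 on the minus strand, with the match beginning 195 bases before the start. The Pf4 window is chr5:90772185-90772434 on the plus strand (match at 10 bases), the Fcrls window chr3:87263525-87263774 on the minus strand (75 bases), and the Ccl12 window chr11:82101595-82101844 on the plus strand (228 bases). A match describes the letters and does not show binding.
C1qc: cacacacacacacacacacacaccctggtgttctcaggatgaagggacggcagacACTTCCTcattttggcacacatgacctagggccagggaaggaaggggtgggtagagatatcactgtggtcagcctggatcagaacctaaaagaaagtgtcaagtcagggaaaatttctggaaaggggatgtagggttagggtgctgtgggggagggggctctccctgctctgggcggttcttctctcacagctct
Pf4: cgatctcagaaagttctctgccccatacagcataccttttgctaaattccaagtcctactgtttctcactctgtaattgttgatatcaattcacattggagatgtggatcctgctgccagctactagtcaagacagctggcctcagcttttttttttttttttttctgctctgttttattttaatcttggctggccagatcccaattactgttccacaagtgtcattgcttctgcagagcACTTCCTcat
Fcrls: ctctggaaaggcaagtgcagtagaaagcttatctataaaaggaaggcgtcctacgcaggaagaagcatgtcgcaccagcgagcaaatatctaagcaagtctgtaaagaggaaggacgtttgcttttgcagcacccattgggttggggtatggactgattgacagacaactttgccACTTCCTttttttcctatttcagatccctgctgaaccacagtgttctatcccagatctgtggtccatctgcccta
Ccl12: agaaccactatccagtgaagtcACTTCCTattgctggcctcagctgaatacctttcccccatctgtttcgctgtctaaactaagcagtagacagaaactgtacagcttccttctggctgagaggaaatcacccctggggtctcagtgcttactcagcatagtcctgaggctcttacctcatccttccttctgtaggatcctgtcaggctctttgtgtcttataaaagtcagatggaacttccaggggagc

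C1q-high macrophages made up a smaller share of the cells in the agonist-treated wound. They were 6.47% (6.02 to 6.93) of the filtered cells in WT_LW and 4.44% (4.09 to 4.80) in TLR9agonist_LW, a log2 ratio of -0.54 (-0.70 to -0.39). As a share of all filtered UMIs the libraries stood further apart, at 7.59% and 3.70%. With the collagen limit set at 5 UMIs in place of 20, only 255 and 52 members were left, 2.23% and 0.394% of cells, and the log2 ratio was -2.50. The size of the difference in share thus depends on the collagen limit, and its direction did not. How animals vary in this share cannot be known from 1 library a group.

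The ratio of each gene between the libraries was taken within the members. Levels are CPM of the UMIs summed over members, and each log2 ratio, TLR9agonist_LW to WT_LW, is given relative to the median gene, whose own ratio was -0.14. A gene was measured when members held at least 50 of its UMIs, and was counted as higher or lower when it lay at least 2-fold from the median gene. Of 9490 measured genes that the rule did not use, 467 (4.92%) were higher and 176 (1.85%) lower in TLR9agonist_LW. Without the centring the counts were 360 higher and 271 lower. The whole counting interval lay past 2-fold for 226 of the higher and 40 of the lower genes.

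Many of the higher genes were ones that other cells hold in greater amount, but so were many of all measured genes. In TLR9agonist_LW, 290 of the 467 higher genes (62.1%) were below their level in all other filtered cells, and 177 were at or above it. Over all 9490 measured genes, 4406 were at or above that level in TLR9agonist_LW. Of the 467, 212 were also at least 2-fold higher in those other cells. Of the 176 lower genes, 76 (43.2%) were below their level in the other cells of WT_LW. The remaining 100 were at or above it, as were 3148 of the 9490 measured genes. Of the same 176, 39 were also at least 2-fold lower in the other cells. All 16 keratinocyte markers were among the higher genes, with a median log2 ratio of 2.42. Their sum was 1164 CPM in WT_LW against 5508 CPM in TLR9agonist_LW members, and 4216 and 9233 CPM in T cells, and none of the 16 was at 0. Per member, the median was 6.30 keratinocyte UMIs per 10000 in WT_LW and 32.7 in TLR9agonist_LW. The lowest TLR9agonist_LW member still held 8.77, so the signal was present in each of them.

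The 8 highest ratios among genes with at least 200 UMIs were of this kind. Sprr2f, Sprr2d, Sprr1a and Sprr1b, which encode envelope proteins of the cornified layer, had log2 ratios of 9.26, 5.43, 5.15 and 4.56, Sprr2f resting on 1 UMI in WT_LW and 370 in TLR9agonist_LW. Serpinb2 stood at 4.73, 2610528A11Rik at 4.12, the cytokine gene Il6 at 4.36 and the neutrophil calprotectin gene S100a8 at 4.26. Each of the 8 was lower in members than in the other cells of TLR9agonist_LW. The Sprr2 genes are near-identical copies, so the split of reads between them is uncertain.

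The neutrophil gene S100a8 was detected in 16.8% of WT_LW and 97.1% of TLR9agonist_LW members, and in 14.2% and 97.5% of T cells, which are not known to make it. After thinning the shares were 3.99% and 57.8% of members against 5.09% and 71.8% of T cells in the same libraries. Il6 was detected in 0.551% and 3.79% of thinned members and in 1.33% and 4.70% of T cells. For both genes the share in thinned members was below that in T cells of the same library. Fibroblast markers that the rule did not use were higher too, at 1730 and 3138 CPM in sum in members and 2387 and 3983 CPM in T cells. The part that RNA from other cells plays in any single ratio was not tested.

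**Figure D3:**
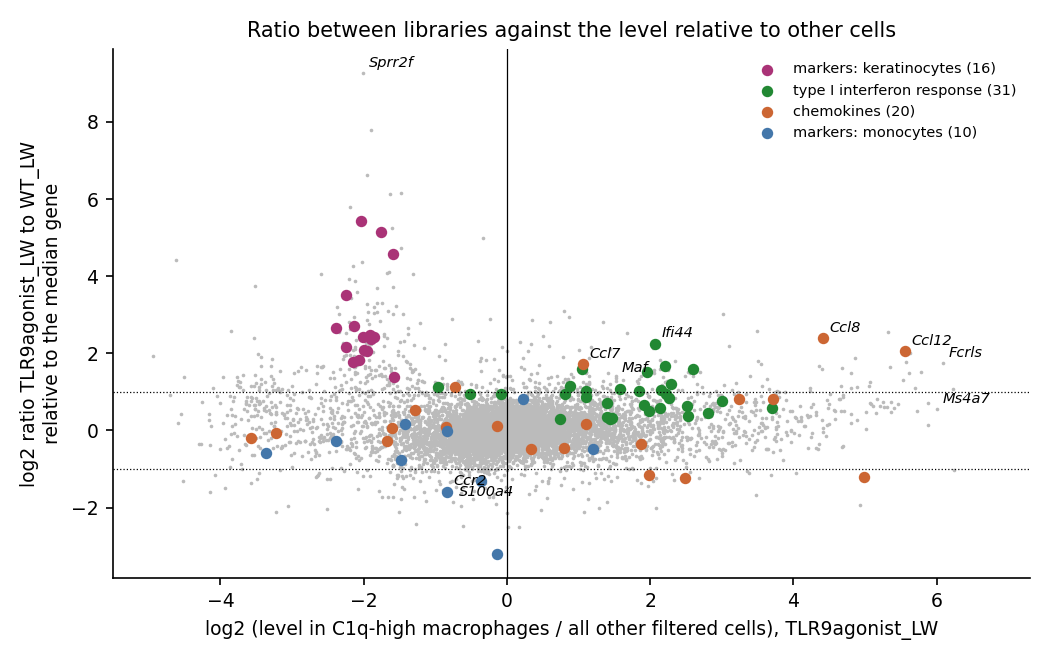
Each point is 1 measured gene, with its log2 ratio between libraries in C1q-high macrophages relative to the median gene against the log2 of its level in members over all other cells of TLR9agonist_LW. Dotted lines mark 2-fold. Keratinocyte markers (16 genes) lie high on the left, where other cells hold more of the RNA, whereas Ccl8, Ccl12 and Fcrls lie high on the right; Arg1, without a UMI in TLR9agonist_LW, is not drawn.

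The chemokine genes Ccl8, Ccl12 and Ccl7 were higher in TLR9agonist_LW members and stood above their level in the other cells. Ccl8 was at 966 CPM (944 to 989) in WT_LW members against 4633 CPM (4573 to 4694) in TLR9agonist_LW members, a log2 ratio of 2.40. Ccl12 was at 178 CPM (169 to 188) and 676 CPM (653 to 700), a log2 ratio of 2.06. Ccl7 was at 352 and 1053 CPM, with a log2 ratio of 1.72 (1.65 to 1.79). Ccl8, Ccl7 and Ccl12 encode ligands that draw leukocytes, and those of Ccl12 and Ccl7 draw monocytes through CCR2. All 3 remained past 2-fold in every alternative run, with log2 ratios of 2.26 to 2.59 for Ccl8, 1.92 to 2.89 for Ccl12 and 1.05 to 1.88 for Ccl7.

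The shares of members with these transcripts differed in the same direction. In thinned members Ccl8 was detected in 21.6% (18.7 to 24.8) of WT_LW and 64.6% (60.5 to 68.6) of TLR9agonist_LW, with T cells at 3.70% and 9.46%. Ccl12 was detected in 14.0% and 33.4% of members and in 0.296% and 0.839% of T cells. Ccl7 was detected in 20.5% and 48.7% of members and in 4.14% and 11.1% of T cells. All these shares of members were well above those of T cells in the same library. Without thinning, 35.7% and 79.9% of members held Ccl8, 30.1% and 58.9% Ccl12, and 42.4% and 71.0% Ccl7.

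Neighbouring cells carried less Ccl8, Ccl12 and Ccl7 than the members of their own library. In Mmp12-high macrophages (78 and 50 cells) Ccl8 was at 95.5 and 302 CPM and Ccl12 at 23.9 and 93.9 CPM in the respective libraries. In cells with Lyz2 and fewer than 3 C1q UMIs (334 and 94 cells) Ccl8 was at 24.5 and 44.3 CPM and Ccl12 at 8.75 and 11.7 CPM. T cells held Ccl8 at 55.9 and 109 CPM and Ccl12 at 4.57 and 12.1 CPM. Ccl7 was at 89.5 and 226 CPM in Mmp12-high macrophages, 146 and 72.9 CPM in the C1q-low Lyz2 cells, and 31.8 and 98.6 CPM in T cells. The level of Ccl8 was thus higher in TLR9agonist_LW in each of these sets, and highest in the members. The difference between libraries was not limited to the members. In all other filtered cells the log2 ratios, relative to their own median gene, were 2.06 for Ccl8 and 1.84 for Ccl12, against 2.40 and 2.06 in members. In Mmp12-high macrophages they were 1.96 and 2.28.

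Ccl2, the main CCR2 ligand, differed less clearly. It was at 505 CPM in WT_LW against 1002 CPM in TLR9agonist_LW members, a log2 ratio of 1.12 (1.06 to 1.19), but other cells of TLR9agonist_LW held more, at 1649 CPM. In thinned cells it was detected in 27.3% and 52.2% of members and in 7.99% and 27.7% of T cells. Its log2 ratio was 0.50 under the stricter collagen limit and 0.99 without centring, both short of 2-fold.

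The chemokine list as a whole was split. Of 20 measured genes 4 were higher, 3 lower and 13 between, and their median log2 ratio was 0.08, against 0.00 over all measured genes. The lower genes were Ccl6 (469 and 193 CPM, -1.15), Ccl9 (516 and 201 CPM, -1.22) and Ccl24 (52.6 and 20.6 CPM, -1.21). Ccl6 and Ccl9 are chemokines of the myeloid lineage and Ccl24 attracts eosinophils. The inflammatory chemokines Ccl3 and Ccl4 stood at 0.82 each, the neutrophil attractants Cxcl2 and Cxcl1 at 0.18 and 0.07, and the interferon-inducible Cxcl10 and Cxcl9 at 0.09 and -0.45. The T cell attractant Ccl5 was at 287 and 187 CPM, with a log2 ratio of -0.48, within 2-fold.

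Several markers of monocytes were lower in TLR9agonist_LW members. Ccr2, the receptor that brings monocytes out of the blood, was at 231 CPM (220 to 242) in WT_LW against 69.9 CPM (62.7 to 77.8) in TLR9agonist_LW, a log2 ratio of -1.59. Ly6c2, the classical monocyte surface marker, was at 45.6 and 16.7 CPM (-1.31), and Chil3, a chitinase-like protein, at 8.33 and 0.825 CPM on 61 and 4 UMIs (-3.20). These were the 3 lower genes of 10 measured monocyte markers, whose median log2 ratio was -0.54, and none was higher. The other 7 included Spn at -0.78, Vcan at -0.59, Plac8 at 0.00 and Nr4a1 at 0.82. With the stricter collagen limit 6 monocyte markers were measured, of which 4 were lower and 1 higher. Ly6c2 was detected in 4.68% of WT_LW and 2.35% of TLR9agonist_LW thinned members, and in 15.86% and 4.001% of thinned T cells. It was thus more frequent in T cells than in members of the same library. The lower share in TLR9agonist_LW was not limited to the members, and its cause was not tested.

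S100a4, Crip1 and Fn1, which are outside that list, were lower as well, and Crip1 was picked after its values were seen. S100a4, a calcium-binding protein of motile cells, was at 1451 CPM (1423 to 1479) and 362 CPM (345 to 379), a log2 ratio of -1.87. Crip1, a small LIM protein, was at 1708 and 530 CPM (-1.55), and the fibronectin gene Fn1 at 535 and 184 CPM (-1.40). The ratio of S100a4 ranged from -3.02 to -1.82 over the alternatives. S100a4 was also lower in all other cells (-0.97) and in Mmp12-high macrophages (-0.80), by less than in the members. In thinned members S100a4 was detected in 59.2% of WT_LW and 20.6% of TLR9agonist_LW, while T cells, which express it themselves, showed it in 85.4% and 75.4%. Ccr2 was detected in 21.9% and 9.21% of members and in 34.8% and 50.2% of T cells. For Ccr2 the members and the T cells therefore differed between libraries in opposite directions.

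Ccl8 and S100a4 tended to sit in different members. Among thinned WT_LW members 114 (15.7%) held Ccl8 without S100a4, 387 (53.3%) S100a4 without Ccl8, 43 (5.92%) both and 182 (25.1%) neither. Among thinned TLR9agonist_LW members the numbers were 319 (57.6%), 75 (13.5%), 39 (7.04%) and 121 (21.8%). The first kind of member was the more frequent in TLR9agonist_LW and the second kind in WT_LW. Across thinned members within a library, Spearman's rho between Ccl8 and S100a4 was -0.36 in WT_LW and -0.32 in TLR9agonist_LW, and between S100a4 and Crip1 0.52 and 0.32. Ccl8 and Maf gave 0.30 and 0.29, Ccl8 and Mrc1 0.28 and 0.33, and Ccl8 and the keratinocyte gene Krt14 0.01 and -0.03. These are descriptions over cells of 1 library each, which may share free RNA.

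Single members spanned a wide range of Ccl8. Per 10000 UMIs the median member held 0 in WT_LW and 13.5 in TLR9agonist_LW, and the highest 346 and 426. The 74 WT_LW and 59 TLR9agonist_LW members with the most Ccl8 held 85.7% and 55.5% of its UMIs. Ccl8 was thus spread over more members in TLR9agonist_LW. S100a4 ran the other way, with medians of 6.17 and 0 and maxima of 125 and 47.7 per 10000.

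**Figure D4:**
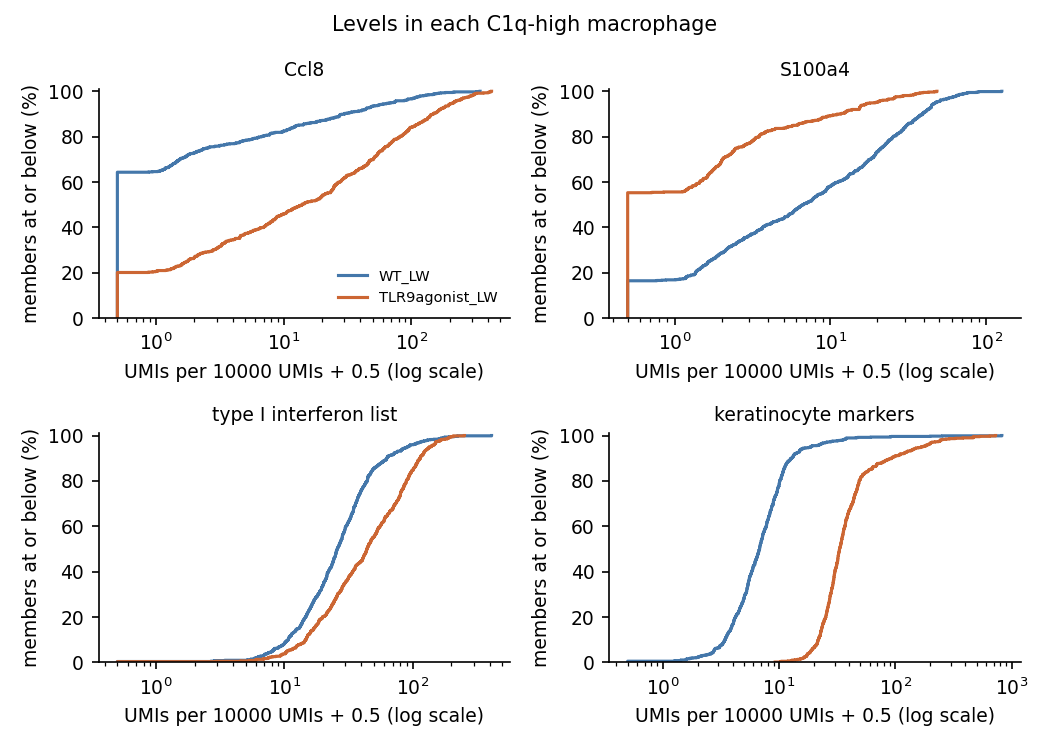
Each curve gives the percentage of C1q-high macrophages at or below a level, in UMIs per 10000 UMIs of the cell plus 0.5 on a log axis, for Ccl8, S100a4, the type I interferon list and the keratinocyte markers, blue for WT_LW and orange for TLR9agonist_LW. Ccl8 was without a UMI in all but 35.7% of WT_LW and 79.9% of TLR9agonist_LW members, S100a4 shows the opposite order, and the keratinocyte curves barely overlap.

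Fcrls, one of the leading genes, and the transcription factor gene Maf were higher. Fcrls was at 139 CPM (130 to 148) in WT_LW against 424 CPM (406 to 443) in TLR9agonist_LW members, a log2 ratio of 1.75, and was detected in 16.9% and 43.0% of thinned members against 0.71% and 0.644% of T cells. Maf, which restrains macrophage proliferation, was at 348 and 815 CPM (1.36). The mannose receptor gene Mrc1 (726 and 1030 CPM, 0.64), the fractalkine receptor gene Cx3cr1 (66.9 and 114 CPM, 0.91) and Klf2 (177 and 319 CPM, 0.98) stayed within 2-fold. Fcrls ranged from 1.61 to 1.81 and Maf from 1.23 to 1.66 over the alternatives.

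The list of resident macrophage genes did not move as a block. Of 11 measured genes 2 were higher and 3 lower, with a median log2 ratio of 0.61. Igfbp4, which encodes an insulin-like growth factor binding protein, was at 99.7 and 226 CPM (1.32). Lyve1, the hyaluronan receptor of perivascular macrophages, had a log2 ratio of 2.87 but rested on 10 and 9 members, and gave 0.22 once cells with high doublet scores were removed. Folr2 was lower (40.4 and 17.9 CPM, -1.04), as were Ccl24 and Fcna (6.01 and 1.44 CPM, -1.92). At 1500 UMIs a cell, neither Timd4 nor Cd163 was detected in the 726 and 554 thinned members, which allows up to 0.507% and 0.664% of members to hold a UMI at that depth. At full depth Timd4 was detected in 0.135% of WT_LW and in none of the TLR9agonist_LW members, and Cd163 in 0.135% and 0.683%. Folr2 lay within 2-fold in 4 of 11 alternatives.

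Of 15 measured macrophage transcription factors 2 were higher and 1 lower, with a median log2 ratio of 0.01. Beside Maf the higher gene was Bhlhe41 (9.29 and 21.4 CPM, 1.34), and the lower was its relative Bhlhe40 (273 and 111 CPM, -1.17), both of which encode helix-loop-helix repressors. Spi1, the gene of PU.1, stood at 0.16, Irf8 at 0.01 and Cebpb at 0.24. The macrophage identity genes likewise stayed within 2-fold, all 16 of them, with a median of 0.11. Among them the Fc receptor gene Fcgr1 stood at 0.72, Csf1r at -0.17, Lyz2 at -0.45 and the protease gene Ctss at -0.85.

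Type I interferon response genes were on the higher side in TLR9agonist_LW members. Of 31 measured genes 12 were higher and none lower, against 4.92% higher over all genes, and all 31 had log2 ratios above 0, against 4741 of 9490 genes overall. The median was 0.94 in members, 0.34 in all other cells, 0.56 in Mmp12-high macrophages and 0.01 in C1q-low Lyz2 cells, each relative to its own median gene. Summed over the list, members were at 3231 CPM in WT_LW against 5443 CPM in TLR9agonist_LW, and T cells at 2133 and 1783 CPM. The number of higher genes ran from 7 to 14 over the alternatives, with 7 without centring and 7 after thinning, and the median from 0.66 to 0.96.

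The genes of this list that lay past 2-fold included sensors of viral RNA, antiviral effectors and regulators. Irf7, the transcription factor that amplifies interferon production, was at 52.4 CPM (47.3 to 58.0) and 143 CPM (132 to 154), a log2 ratio of 1.58. Ifit3, which binds viral RNA in a complex, was at 22.0 and 63.7 CPM (1.67), Ifi44 at 6.42 and 27.8 CPM (2.25) and Ifi27l2a at 526 and 1108 CPM (1.21). Bst2, the tetherin that holds budding virus at the membrane, was at 316 and 601 CPM (1.06), and Isg15, a ubiquitin-like modifier, at 110 and 194 CPM (0.95), just inside 2-fold. The others past 2-fold were Phf11d (1.59), Ifit3b (1.50), Ifit1 (1.14), Isg20 (1.13), Oasl2 (1.05), Xaf1 (1.02) and Rtp4 (1.01). Irf9, which helps carry the interferon signal to the nucleus, stood at 0.29. Ifit3 and Ifit3b, and Phf11d and Phf11b, are near-identical pairs whose reads may be split with error.

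The interferon signal was spread over the members. Per 10000 UMIs the median member held 25.4 UMIs of the list in WT_LW and 43.6 in TLR9agonist_LW, while T cells held 17.9 and 14.1. Members with at least 100 numbered 30 (4.05%) and 90 (15.4%). In thinned cells Irf7 was detected in 8.82% and 19.9% of members and in 4.23% and 2.49% of T cells. Ifit3 was detected in 2.62% and 9.21% of members and in 0.562% and 0.644% of T cells. In T cells the list and Irf7 were not higher in TLR9agonist_LW.

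Of 20 measured genes of the interferon gamma list 1 was higher and none lower, with a median log2 ratio of 0.17, and 17 of the 20 had log2 ratios above 0. The higher gene was Iigp1, an immunity-related GTPase, at 42.5 and 108 CPM (1.49). Irgm2 stood at 0.79, Gbp2 at 0.16, Irf1 at 0.10 and Ciita, the master regulator of MHC class II genes, at -0.79. The difference between the 2 lists was not tested.

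Promoters of 3 interferon genes are shown for the run of letters through which interferon-activated factors act. The response element core GAAANNGAAA was searched on both strands of the same 250-base windows. It was present in 10 of 22 matched promoters of the type I list, 10 of 18 of the interferon gamma list, 2 of 15 of the chemokine list and 2.98% of all promoters. As in the earlier search, the lists were counted per gene and the share over all per promoter. The Ccl12 window shown above did not hold these letters, which says nothing about the factors. Capitals mark the matches, joined where they overlap. The windows are chr19:34583279-34583528 on the plus strand for Ifit3 (2 matches), chr4:156200819-156201068 on the minus strand for Isg15 (3 matches) and chr8:71537473-71537722 on the minus strand for Bst2 (2 matches), in GRCm38.p6 from RefSeq.
Ifit3: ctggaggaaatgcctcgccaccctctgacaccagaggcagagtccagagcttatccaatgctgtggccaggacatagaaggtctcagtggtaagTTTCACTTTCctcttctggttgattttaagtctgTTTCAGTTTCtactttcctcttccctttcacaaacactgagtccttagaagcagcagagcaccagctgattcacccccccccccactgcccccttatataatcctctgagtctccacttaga
Isg15: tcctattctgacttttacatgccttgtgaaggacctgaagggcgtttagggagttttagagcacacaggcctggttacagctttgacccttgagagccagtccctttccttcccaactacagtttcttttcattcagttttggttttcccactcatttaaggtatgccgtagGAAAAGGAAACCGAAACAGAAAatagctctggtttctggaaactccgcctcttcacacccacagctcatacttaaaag
Bst2: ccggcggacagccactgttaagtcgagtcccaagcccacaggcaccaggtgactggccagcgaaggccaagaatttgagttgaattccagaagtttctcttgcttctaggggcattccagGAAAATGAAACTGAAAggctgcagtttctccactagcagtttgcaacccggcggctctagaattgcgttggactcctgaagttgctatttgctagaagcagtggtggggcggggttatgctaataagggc

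**Figure D5:**
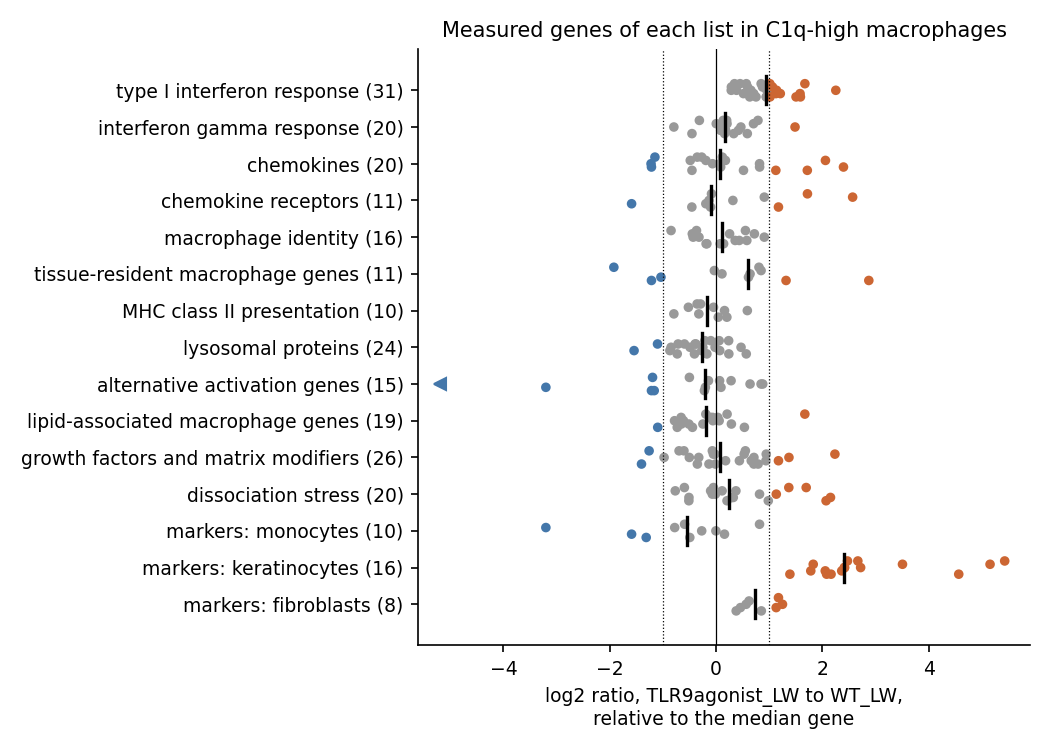
Each point is a measured gene of a list, numbers in brackets giving how many, at its log2 ratio between libraries in C1q-high macrophages relative to the median gene; black bars are list medians and dotted lines mark 2-fold, with orange for higher and blue for lower genes. The type I interferon genes lie wholly to the right of 0 around a median of 0.94, the keratinocyte markers lie past 2-fold around 2.42, and the arrow marks Arg1, which had no UMI in TLR9agonist_LW.

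Antigen presentation by MHC class II was near the median gene. None of 10 measured genes passed 2-fold in either direction, and their median log2 ratio was -0.17. Cd74, the invariant chain, was at 12352 CPM in WT_LW against 12951 CPM in TLR9agonist_LW (0.20), H2-Ab1 at 6230 and 4532 CPM (-0.32) and the costimulatory gene Cd86 at 171 and 234 CPM (0.59). H2-Aa was detected in 87.9% and 94.0% of thinned members and in 21.0% and 12.6% of T cells. The list median ran from -0.30 to 0.16 over the alternatives, so it had no steady sign.

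Lysosomal genes lay mostly below the median gene but few passed 2-fold. Of 24 measured genes 2 were lower and none higher, and the median log2 ratio was -0.26. The protease gene Ctsd was at 1104 and 469 CPM (-1.10) and Atp6v0d2, a proton pump subunit, at 31.0 and 9.70 CPM (-1.54). Psap at -0.87, Ctss at -0.85 and Lipa at -0.73 were within 2-fold, and Ctsc at 0.47 and Ctsk at 0.57 lay on the other side. Over 11 alternatives Ctsd stayed past 2-fold in 10, and Atp6v0d2 in 8, with a range of -1.68 to -0.90.

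Lipid-handling genes were also near the median gene, with exceptions. Of 19 measured genes 1 was higher and 1 lower, and the median was -0.19. Trem2, a lipid-sensing receptor of macrophages, was at 415 CPM (401 to 430) and 177 CPM (165 to 189), a log2 ratio of -1.10, and was detected in 36.0% and 23.5% of thinned members against 1.75% and 0.699% of T cells. Apoc1, an apolipoprotein, was at 23.4 and 67.7 CPM (1.67), but other cells of TLR9agonist_LW held 233 CPM. Apoe, the main apolipoprotein of macrophages, was at 16510 and 14365 CPM (-0.07). Spp1 stood at -0.06 and Gpnmb at -0.51. Trem2 lay within 2-fold in 2 of 11 alternatives.

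Receptors for dying cells and for antibodies lay near the median gene. Of 18 measured engulfment genes 1 was lower and none higher, with a median of -0.05. That gene was the scavenger receptor Marco, at 6.42 and 1.44 CPM on 47 and 7 UMIs (-2.02). Mertk, the receptor that binds dying cells through bridges such as Gas6, stood at -0.37, Axl at 0.03 and Gas6 at 0.61. None of 6 Fc receptor genes passed 2-fold, and their median was 0.38.

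Complement genes other than C1q were mixed. Of 12 measured genes 3 were higher and 1 lower, with a median of 0.15. C4b (6.01 and 19.0 CPM, 1.79), Cd55 (4.37 and 10.9 CPM, 1.46) and the C1 inhibitor gene Serping1 (9.01 and 20.8 CPM, 1.34) were higher, yet each was below its level in other cells of TLR9agonist_LW. The lower gene was Itgax, which encodes the CD11c part of complement receptor 4, at 58.6 and 24.96 CPM (-1.10). The receptor gene C3ar1 stood at 0.44 and Itgam, the CD11b gene, at -0.01. The C1q genes themselves were at 3065 and 3496 CPM for C1qa, 3701 and 4263 CPM for C1qb and 1720 and 1957 CPM for C1qc, which the rule partly fixes.

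The alternative activation list held a gene without a UMI in TLR9agonist_LW. Arg1, which encodes arginase and competes for the substrate of nitric oxide synthase, had 289 UMIs in 60 WT_LW members (8.11%) and no UMI in the 586 TLR9agonist_LW members. Set at the floor of 3 UMIs over the members of TLR9agonist_LW, it was 63.8-fold lower. This fold is not a bound, because the exact 2-sided interval of its level in TLR9agonist_LW reached above that floor, to 0.761 CPM. Of 15 measured genes of the list 5 were lower and none higher, with a median log2 ratio of -0.20. Beside Arg1, Chil3 and Ccl24 the lower genes were Tgm2, a transglutaminase, at 158 and 62.7 CPM (-1.19), and Retnla at 35.5 and 14.4 CPM (-1.16) in only 8 and 4 members. Mrc1 at 0.64, Clec10a at 0.85 and Egr2 at 0.88 lay above the median gene within 2-fold, so the list held genes on both sides.

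Arg1 was low in the other cells of TLR9agonist_LW too. Mmp12-high macrophages held 191 CPM in WT_LW against 6.02 CPM in TLR9agonist_LW, and C1q-low Lyz2 cells 91.4 and 9.11 CPM. The other genes among the 8 lowest ratios were Tppp3, a tubulin-binding protein, at 239 CPM (228 to 250) and 38.2 CPM (32.9 to 44.1), a log2 ratio of -2.51, Gm26870 at -2.50, the CD97 gene Adgre5 at 102 and 21.0 CPM (-2.14), Syngr1 at 61.7 and 14.0 CPM (-2.00), Ifitm1 (-1.97) and Ecm1, a matrix protein, at 196 and 47.4 CPM (-1.91). S100a4 completed the 8. Syngr1 was lower in the members but not in Mmp12-high macrophages, where it was at 45.2 and 67.4 CPM. In all other cells the log2 ratios were -3.27 for Gm26870, -1.52 for Tppp3 and -1.38 for Adgre5, so these 3 were lower outside the members too. There Syngr1 stood at 0.11, Ifitm1 at -0.04 and Ecm1 at 0.16. Tppp3 was detected in 292 WT_LW and 64 TLR9agonist_LW members.

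Classical inflammatory cytokine genes were near the median gene where the members held them in quantity. Il1b was at 1523 CPM (1495 to 1552) in WT_LW against 1631 CPM (1596 to 1668) in TLR9agonist_LW, a log2 ratio of 0.23, and was detected in 57.7% and 55.6% of thinned members. Tnf stood at -0.21, Nlrp3 at -0.02 and the prostaglandin synthase gene Ptgs2 at 0.93. Of 21 measured genes 2 were higher, Il6 and Lif, and 1 lower, Trem1, with a median of 0.09. Lif rested on 24 and 72 UMIs and Trem1 on 80 and 24, and both took the other sign under the stricter collagen limit. None of 18 NF-kB feedback genes passed 2-fold, with a median of -0.11, Nfkbia at 0.37 and Tnfaip3 at 0.15.

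Among 18 inflammation-limiting genes 1 was higher, with a median of 0.08. Il10, the main anti-inflammatory cytokine, was at 83.2 CPM (76.7 to 90.1) and 155 CPM (144 to 166), a log2 ratio of 1.03, and other cells held 9.22 and 8.20 CPM. It was detected in 6.06% (4.44 to 8.05) and 12.1% (9.50 to 15.1) of thinned members and in 2.13% and 1.15% of T cells. It lay within 2-fold in 5 of 11 alternatives, among them 0.89 without centring and 0.66 under the stricter collagen limit. Il1rn, the interleukin 1 receptor antagonist, stood at 0.74, Hmox1 at 0.40 and Il1r2 at -0.84.

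The receptor for the applied oligonucleotide was sparse in these cells. Tlr9 gave 11 UMIs (1.50 CPM, 0.75 to 2.69) in WT_LW members and 17 UMIs (3.51 CPM, 2.04 to 5.61) in TLR9agonist_LW members, too few for the gene minimum. Of the unthinned members 1.49% and 2.73% held a UMI, and in thinned cells 0.275% and 0.722% of members and none of the T cells did. Of 25 measured Toll-like receptor genes and adaptors 2 were higher and none lower, with a median of 0.08. Tlr13, a receptor for bacterial ribosomal RNA, was at 13.7 and 27.8 CPM (1.16), and Tlr8 at 10.7 and 20.6 CPM (1.09). Tlr7, for single-stranded RNA, stood at 0.68, Myd88 at 0.17, Unc93b1, which carries endosomal receptors to their place, at 0.24 and Tlr2 at -0.16.

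Receptors for chemoattractants held 3 higher genes and 1 lower gene among 11 measured, with a median of -0.09. The formyl peptide receptor genes Fpr1 (3.55 and 19.2 CPM, 2.57) and Fpr2 (8.74 and 26.2 CPM, 1.72) were above their levels in other cells, which were 1.70 and 2.23 CPM in TLR9agonist_LW. Fpr1 ranged from 2.43 to 3.45 and Fpr2 from 1.57 to 2.05 over the alternatives. Ackr3 (25 and 34 UMIs, 1.17) changed sign in 2 alternatives. The lower gene was Ccr2, and Ccr1 at -0.45 and Cxcr4 at -0.09 were within 2-fold.

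Growth factors and matrix-modifying genes gave 3 higher and 2 lower genes of 26 measured, with a median of 0.08. Mmp13, a collagenase, was at 12.7 CPM (10.2 to 15.6) and 54.5 CPM (48.1 to 61.4), a log2 ratio of 2.24, with other cells at 11.5 and 43.1 CPM. It was held by 45 (6.08%) and 74 (12.6%) members. Areg and Sparc were higher at 1.37 and 1.17, but T cells held Areg at 267 and 2992 CPM and other cells held Sparc at 5851 and 8938 CPM, so both were far below the level around them. The lower genes were Fn1 and the protease gene Adam8 (124 and 47.2 CPM, -1.26). Igf1, a growth factor of repair macrophages, stood at 0.71, Pdgfb at 0.71, Tgfb1 at -0.05 and Vegfa at -0.70.

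Iron and haem genes held 2 higher genes of 15 measured and none lower, with a median of 0.04. Cp, the copper oxidase ceruloplasmin, was at 4.64 CPM (3.22 to 6.49) and 32.4 CPM (27.5 to 37.9), a log2 ratio of 2.94. It was found in 31 (4.19%) and 95 (16.2%) members, and other cells held 21.0 and 17.8 CPM. Its ratio ran from 2.32 to 3.76 over the alternatives. Ncoa4 rested on 31 and 40 UMIs (1.10). The iron exporter gene Slc40a1 stood at -0.99, Hmox1 at 0.40 and the ferritin gene Fth1 at 0.11.

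Genes that respond to heat and to tissue dissociation were higher in part. Hspa1b was at 909 and 3475 CPM (2.07), Hspa1a at 1162 and 3427 CPM (1.70), Hsph1 at 116 and 468 CPM (2.15), Dnajb1 at 136 and 321 CPM (1.37) and Hsp90aa1 at 1138 and 2272 CPM (1.13). These 5 heat shock genes were the higher ones of 20 measured, and none was lower. None of the early response genes of the same list passed 2-fold, and they lay on both sides of the median gene, from Dusp1 at -0.77 and Fos at -0.51 to Egr1 at 0.21 and Nr4a1 at 0.82. The list median was 0.25 in members and 0.60 in all other cells, and T cells held Hspa1b at 986 and 3542 CPM, so heat shock genes were higher outside the members too. Its part in the other ratios was not tested. Hspa1a and Hspa1b are near-identical copies.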

How the data were processed

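Per the labels, 2 libraries of healed dorsal skin were made with 10x Chromium 3' chemistry. The authors deposited whole-number UMI counts per gene and barcode, and the file header names Cell Ranger 4.0.0. The submitters' processing notes also name fastp, Seurat and mm9. The cell filter required 500 UMIs and 300 genes and allowed 15% mitochondrial UMIs, and C1q-high macrophages were taken by the counts given in the report. The rule, the members and the 37 gene lists were chosen with earlier results of these data known, and 3 listed genes matched no symbol. Some measured genes are not reported here.

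UMIs were summed over members and scaled to CPM with exact Poisson intervals; shares have exact Clopper-Pearson intervals, and ratios an exact interval given the total count. Ratios were centred on the median of 9498 genes with at least 50 UMIs. With 1 library a group no count test was run. To compare detection, cells were thinned to 1500 UMIs. T cells held at least 3 CD3 UMIs and fewer than 20 collagen UMIs. Genes named were those of the lists, the 8 highest and the 8 lowest ratios with at least 200 UMIs, and the 10 leading genes over other cells, and Crip1 was named after its values were seen. No doublets were removed, and an alternative removed the cells with the most simulated doublets among 50 nearest neighbours over 12 marker lists (0.8% per 1000 cells). Other alternatives were a stricter cell filter (1500 UMIs, 800 genes, 8%), other C1q, collagen and gene minimums, Ms4a7 or Pf4 required, no centring, mean CPM per cell and thinning. Leaving out members with at least 100 keratinocyte UMIs per 10000, shared barcodes, or genes below other cells was added after the data were seen. The level in other cells was taken from TLR9agonist_LW for higher genes and from WT_LW for lower genes. The centred ratios and their intervals were tested on simulated Poisson counts with known folds, and the other steps were not simulated. Analyses ran in Python 3.11.15 with pandas 2.3.3, scipy 1.17.1, numpy 2.4.6 and matplotlib 3.10.9.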

Additional observations from a re-analysis of the deposited data

How the results depend on the processing

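The share of C1q-high macrophages kept its direction in every alternative, at log2 ratios of -0.67 to -0.47, except for its size under the collagen limit of 5 UMIs, where it was -2.50. Under that limit 283 genes were higher and 483 lower, against 467 and 176. The higher count was 175 after thinning, 1077 with a gene minimum of 10 UMIs and 182 with a minimum of 200. It was 177 among genes at or above their level in other cells of TLR9agonist_LW. The lower count was 271 without centring, 554 with a minimum of 10, 75 with a minimum of 200 and 100 among genes at or above other cells of WT_LW. In the other alternatives 360 to 484 genes were higher and 127 to 226 lower. By construction, more genes enter with the gene minimum of 10 UMIs (12499 against 9490). Fewer genes or cells enter with the minimum of 200, thinning and the collagen limit. Reversed signs came from the collagen limit of 5, for Serping1 (-0.89), Ackr3 (-0.046), Lif (-0.18), Trem1 (0.95), Isg20 (-0.63) and Areg (-1.12), and from thinning for Ackr3 (-0.20). With the C1q minimum scaled to depth, the red cell and platelet median was 3.35 over 3 measured genes, against -1.68 for the 1 measured gene of the main run. These 2 medians cover different sets of genes, so they do not show a single gene reversing. The causes were not tested. The next counts leave out Arg1, Crip1 and genes named only as cell type markers, such as Ly6c2. Of the 84 other named genes past 2-fold, 84 stayed past it without shared barcodes, 81 without keratinocyte-rich members and 80 without high doublet scores. The number was 74 without centring and 64 of 79 under the collagen limit of 5.

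No paired analysis was possible because each group was 1 library and the labels carry no replicate numbers. Variation between animals was not measured, and depth limits genes with few UMIs such as Tlr9.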

Other observations

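Housekeeping programmes of the C1q-high macrophages were close to the median gene. None of 19 measured cell cycle genes passed 2-fold, with a median log2 ratio of 0.30, Mki67 at 0.00 (52.3 and 47.7 CPM) and Top2a at 0.16. The cycle list's median was -0.48 in all other cells and ran from -0.48 to 0.46 in members over the alternatives. Members with at least 100 cycle UMIs per 10000 numbered 2 and 7, so few members were rich in these transcripts. Of 22 glycolysis and hypoxia genes 1 was higher, Egln3 on 13 and 38 UMIs (2.28), and the median was -0.15, with Ldha at -0.28, Slc16a3 at -0.95 and Hk2 at 0.69. None of 20 oxidative phosphorylation genes passed 2-fold (median 0.00), and none of 22 ribosomal protein genes did (median 0.31, Rpl5 at -0.73, Rplp0 at 0.61).

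A rule chosen after the values were seen took genes at or above their level in other cells of the library where they were higher. High ratios beyond those already given were those of AY036118 (127 and 814 CPM, 2.81), the sialyltransferase gene St3gal6 (13.9 and 54.5 CPM, 2.10) and the dicarboxylate transporter gene Slc13a3 (12.0 and 40.4 CPM, 1.89). In WT_LW, AY036118 and St3gal6 were at only 0.73 and 0.52 times their level in other cells. In all other cells the log2 ratios were 2.03 for AY036118, 0.003 for St3gal6 and 0.02 for Slc13a3. The lowest included Amz1 (-1.85), Tmem88 (-1.73) and Fbxo32 (-1.72). In TLR9agonist_LW, Tmem88 and Fbxo32 were at 0.87 and 0.84 times their level in other cells.

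Markers of cell types other than keratinocytes and fibroblasts differed gene by gene in the members. Of 7 dendritic cell genes 1 was higher (Ccr7, 1.27) and 1 lower (Klrd1, -2.11). Of 3 T and NK cell genes 1 was higher (Cd4, 1.28) and 1 lower (Cd2, -1.27), of 9 endothelial genes 1 was higher (Selp, 1.22), and of 4 neutrophil genes 2 were higher (S100a8 and S100a9) and 1 lower (Trem1). The neutrophil markers summed to 146 CPM in WT_LW and 1300.4 CPM in TLR9agonist_LW members, and to 269.5 and 2637 CPM in T cells. None of 5 mast cell genes, 6 pericyte and Schwann cell genes or the 1 measured B cell gene, Cd79b, passed 2-fold, and the 1 measured red cell and platelet gene, Ppbp, was lower (-1.68).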
